A study of Homo sapiens with 4 samples.

Results

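Integrin and laminin genes were followed in cells of A549 and H441, both of them cell lines established from human lung adenocarcinomas, after silencing of TAZ, the transcriptional co-activator encoded by WWTR1. The genes were taken by symbol: the integrin alpha chains, the integrin beta chains and the laminin chains whose probe set on the array carries that symbol alone. The rule found 35 genes of the 18377 with a single symbol: 17 integrin alpha chains, 8 integrin beta chains and 10 laminin chains, each with 1 probe set. ITGA1 is not among them because its probe set also carries PELO. The samples were 4 arrays of RNA collected 48 h after transfection, 1 for each line with a control siRNA (siNTC) and 1 for each line with an siRNA named for TAZ (siTAZ). All 4 groups received siRNA with the same lipid reagent, and no untransfected cells are among them. With 1 array per group, differences within a line have no replicate check, and the labels do not describe separate cultures.

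Integrins are receptors of 1 alpha and 1 beta chain that span the cell membrane and tie the extracellular matrix to the actin or keratin cytoskeleton. The pairing sets the ligand: α3β1, α6β1 and α6β4 bind laminins, α2β1 binds collagen, and α5β1 and the receptors with αv bind proteins that carry the RGD sequence, such as fibronectin and vitronectin. Laminins are secreted trimers of 1 alpha, 1 beta and 1 gamma chain that form the sheet of the basement membrane under epithelia, and α6β4 anchors epithelial cells to them in hemidesmosomes. In the lung both families hold alveolar epithelium to its basement membrane.

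ITGA6, the laminin-binding alpha chain of α6β1 and α6β4, was the 1 member that changed with siTAZ in the test over both lines, and it fell in both. The largest differences among the chains were not between siRNAs but between lines: LAMB1 was higher in A549, and LAMB3 was higher in H441. The sequence before the annotated starts of ITGA6, its partner ITGB1 and the chains that differed most between lines is shown first, since TAZ acts through DNA-binding partners. Of the 35 members, 24 had at least 1 window in the RefSeq promoter table (GRCh38.p14), 31 windows in all, and the 250 bases before each start were searched on both strands for CATTCC, the core of the motif bound by TEAD factors, which carry TAZ to DNA, and for TGANTCA, the AP-1 motif. Matches are in capitals in the sequences below, which are written 5′ to 3′ on the gene's strand. ITGA6 has a pair of starts, whose windows adjoin:
ITGA6, chr2:172427086-172427335, plus strand: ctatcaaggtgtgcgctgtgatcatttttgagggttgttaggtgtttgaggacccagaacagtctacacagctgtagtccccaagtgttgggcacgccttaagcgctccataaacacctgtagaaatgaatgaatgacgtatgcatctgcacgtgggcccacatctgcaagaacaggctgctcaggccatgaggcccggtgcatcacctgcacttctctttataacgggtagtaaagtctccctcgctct
ITGA6, chr2:172427336-172427585, plus strand: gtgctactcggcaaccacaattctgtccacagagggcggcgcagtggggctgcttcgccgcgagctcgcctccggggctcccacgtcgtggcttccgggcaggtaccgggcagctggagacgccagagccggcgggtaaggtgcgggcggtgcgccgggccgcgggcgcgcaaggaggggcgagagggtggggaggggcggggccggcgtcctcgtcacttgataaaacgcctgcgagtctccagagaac
ITGB1, the beta chain that pairs with most of the matrix-binding alpha chains, LAMB1 and LAMB3 are given for comparison:
ITGB1, chr10:32958231-32958480, minus strand: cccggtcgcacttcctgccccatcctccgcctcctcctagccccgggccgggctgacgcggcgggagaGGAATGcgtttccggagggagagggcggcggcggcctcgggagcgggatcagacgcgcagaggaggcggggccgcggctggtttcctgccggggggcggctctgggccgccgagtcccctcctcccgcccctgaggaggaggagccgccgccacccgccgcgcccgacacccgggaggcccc
LAMB1, chr7:108003162-108003411, minus strand: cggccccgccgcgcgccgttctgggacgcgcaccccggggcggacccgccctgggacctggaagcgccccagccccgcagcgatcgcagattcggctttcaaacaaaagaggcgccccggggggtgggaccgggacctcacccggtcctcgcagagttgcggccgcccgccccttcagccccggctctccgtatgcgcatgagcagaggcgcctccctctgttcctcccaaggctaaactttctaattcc
LAMB3, chr1:209651375-209651624, minus strand: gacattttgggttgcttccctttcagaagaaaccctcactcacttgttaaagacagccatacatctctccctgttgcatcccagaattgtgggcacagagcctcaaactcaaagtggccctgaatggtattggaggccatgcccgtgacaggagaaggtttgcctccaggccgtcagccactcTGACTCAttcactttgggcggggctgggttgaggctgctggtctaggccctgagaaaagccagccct

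Neither ITGA6 window holds CATTCC or TGANTCA. The ITGB1 window holds CATTCC on the opposite strand, first base at position -182 counted back from the base just before the start, and the LAMB3 window holds TGANTCA at position -67. Among the members' windows, 4 of 31 (12.9%) hold CATTCC, against 11.9% of all 35116 windows, and the genes are ITGA5, ITGA10, ITGB1 and LAMA2. TGANTCA is in 1 of 31 (3.23%), that of LAMB3, against 6.57% of all windows. The other windows of ITGB1 and LAMB3 hold neither. The motifs do not overlap each other in these windows. A match describes the letters only, and more distant sequence was not searched.

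The deposited values are log2 signals, and a gene was tested where its highest array reached the median of all probe sets, 6.13. That kept 19 members: 6 of 17 alpha chains, 7 of 8 beta chains and 6 of 10 laminin chains. The other 16 were below that median on all 4 arrays, with signals of 4.82 to 6.06. Among the 19, 14 reached the median in both lines, ITGA4 and ITGB3 in A549 alone, and ITGB2, ITGB6 and ITGB7 in H441 alone. Signals of different genes come from different probes and are not compared with each other here.

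**Figure D1:**
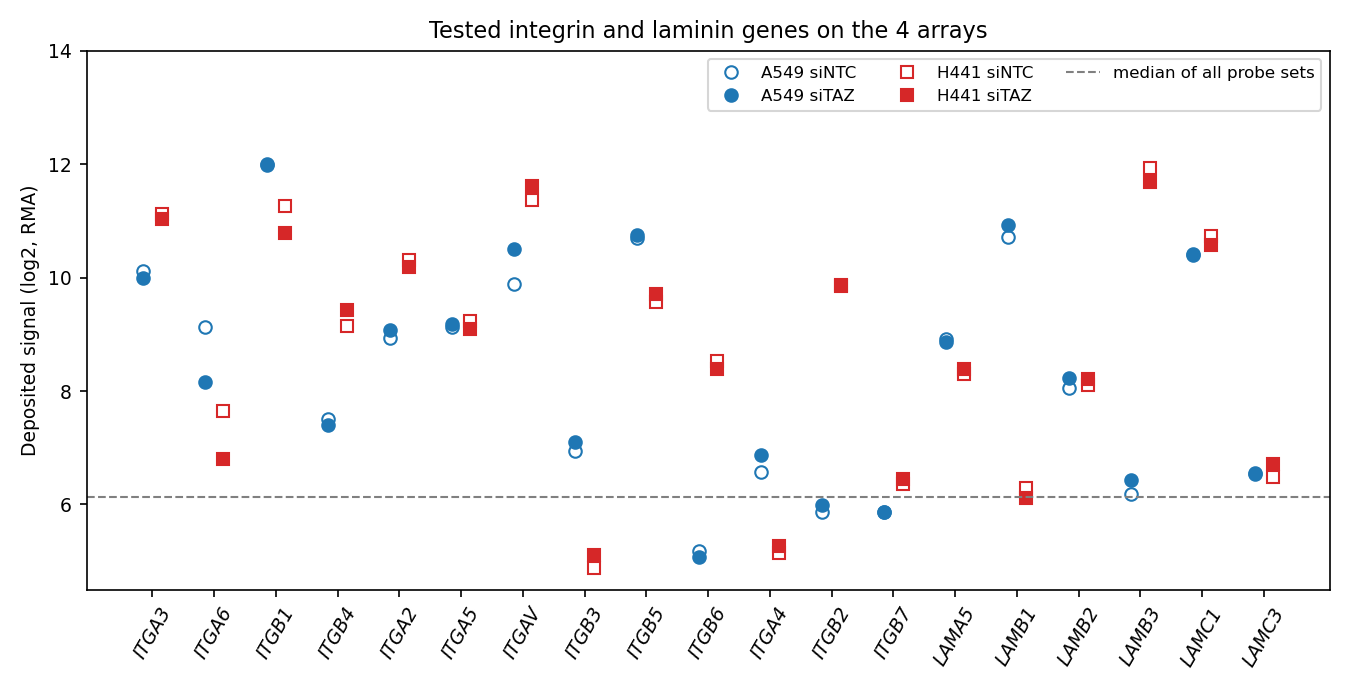
Log2 signal (vertical axis) of the 19 tested integrin and laminin genes (horizontal axis) on each of the 4 arrays: circles for A549, squares for H441, open for siNTC and filled for siTAZ, with the median of all probe sets as a dashed line. ITGA6 is lower with siTAZ in both lines, from 9.13 to 8.16 in A549 and from 7.66 to 6.81 in H441, while LAMB1 and LAMB3 differ mainly between lines; heights of different genes are not comparable.

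The arrays were checked first. WWTR1 itself went from 10.04 to 7.64 under siTAZ in A549 and from 9.61 to 7.47 in H441, so its signal was lower under the siRNA named for it in both. Array medians ran from 6.05 to 6.25, and the arrays of a line correlated at 0.994 and 0.995. The epithelial markers KRT8 and KRT18 were between 13.04 and 13.64 on every array and KRT7 between 11.59 and 12.97, while KRT19 was 8.95 and 8.66 in A549 against 12.99 and 12.85 in H441, and CDH1 8.68 and 8.96 against 12.27 and 12.20. Of the lung markers, NKX2-1, NAPSA, SFTPB and SFTA2 were above the table median in H441 and below it in A549, so the labelled lung origin of A549 is not seen in them. SFTPC was 6.36 in A549 with siNTC and below the table median on the other arrays. EPCAM was 6.65 and 6.74 in A549 and 12.13 and 12.00 in H441. The endothelial markers PECAM1, VWF, CDH5 and TEK were all below the table median, at 4.86 to 5.54.

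Over both lines, 1 of 19 tested members passed the limma test of siTAZ against siNTC, ITGA6, which was lower. The test is fitted to all arrays, takes the cell line out as a block, and calls a gene at a Benjamini-Hochberg adjusted p under 0.05 over all 12740 genes tested, of which 2.47% were called (1.19% higher and 1.29% lower). These were 151 higher and 164 lower as deposited, 123 and 277 after median centring, 77 and 69 after quantile normalization, and 9 and 11 after cyclic loess. The members' share, 1 of 19, is too small a count to set apart from that background. An unadjusted limma p under 0.05 was reached by 2 members, ITGA6 and ITGAV, and by 13.2% of all genes tested. The fit leaves 1 residual degree of freedom, the difference between the lines' responses, so the repeat behind a call is the second line and not a second array of either.

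ITGA6 had signals of 9.13 with siNTC and 8.16 with siTAZ in A549, and of 7.66 and 6.81 in H441. Both siTAZ arrays lay below the siNTC array of their line, although the A549 siTAZ array was still above the H441 siNTC array. The decrease was 1.96-fold in A549 and 1.80-fold in H441, a mean log2 difference of -0.91 ± 0.12 (limma SE, 2 lines, limma adjusted p = 8.7e-05). By size of the mean difference it was the 8th lowest of the 12740 genes tested, and by p-value the 10th. ITGA6 kept its call under each of the 6 alternative scalings, filters and uses of probe sets tried and with an intensity trend in the prior, with means of -0.96 to -0.90; its adjusted p was nearest the threshold after cyclic loess, at 0.046. Its limma adjusted p ran from 3.3e-10 with the trend to 1 in the fit without cell line, where the call was lost; that fit called 0 of all genes and had 11 at an unadjusted limma p under 0.05. Beside ITGA6, the keratins KRT7, KRT8, KRT18 and KRT19 had lower signals with siTAZ in both lines, CDH1 had differences of 0.28 and -0.07, and EPCAM 0.09 and -0.13. None of these 6 epithelial markers passed, and 3 had an unadjusted limma p under 0.05. Summed over the 6 markers, the log2 signal went from 14.74 to 14.40 under siTAZ in A549 and from 15.62 to 15.42 in H441, and their part in the ITGA6 difference was not tested.

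The partners of ITGA6 and the other laminin receptor chains did not pass the test. ITGB4, the beta chain found only with ITGA6, had signals of 7.50 and 7.40 in A549 with siNTC and siTAZ and of 9.14 and 9.44 in H441, so its differences had opposite signs, -0.10 and 0.29 (limma adjusted p = 0.83). ITGB1 had 11.98 and 12.00 in A549 and 11.26 and 10.80 in H441. Its A549 arrays were alike, and its H441 difference of -0.46, 1.38-fold lower, was the second lowest of any tested member there after ITGA6 (limma adjusted p = 0.48 over both lines). The small A549 difference of ITGB1, 0.02, turned to -0.04 after quantile normalization, while the H441 difference ran from -0.55 after median centring to -0.38 after cyclic loess. ITGA3, the alpha chain of the laminin receptor α3β1, had 10.12 and 9.99 in A549 and 11.12 and 11.04 in H441, with differences of -0.13 and -0.08 (adjusted p = 0.78). ITGA7, a laminin-binding chain best known from muscle, was below the table median on all arrays, at 5.52 to 5.92, and was not tested.

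**Figure D2:**
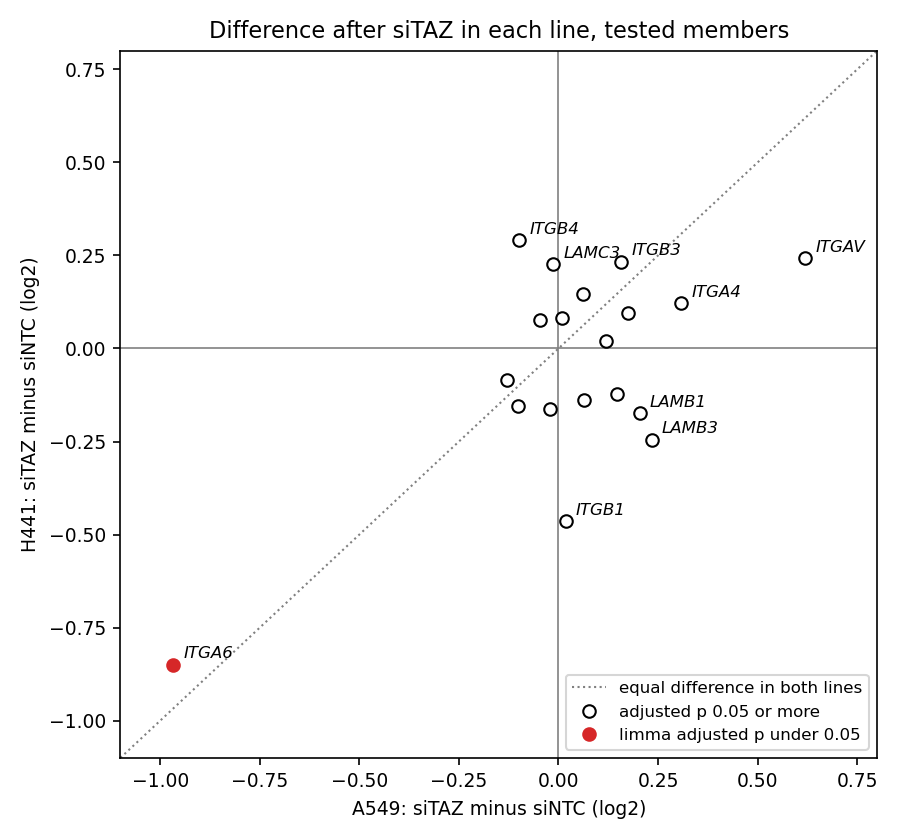
Log2 difference of siTAZ minus siNTC in A549 (horizontal axis) and in H441 (vertical axis) for the 19 tested members, 1 point per gene from single arrays, with a dotted line where both lines would be equal. ITGA6 (filled, limma adjusted p under 0.05) lies near that line at -0.97 and -0.85, and the other 18 genes (open) lie between -0.13 and 0.62 in A549 and between -0.46 and 0.29 in H441.

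ITGAV, the alpha chain shared by the αv receptors for vitronectin, fibronectin and latent TGF-beta, came nearest to a call among the chains with higher signal after siTAZ. Its signals were 9.89 with siNTC and 10.51 with siTAZ in A549, and 11.37 and 11.61 in H441. The siTAZ array was the higher one in each line, 1.54-fold in A549 and 1.18-fold in H441. The mean difference of 0.43 ± 0.12 (limma SE, 2 lines) did not pass over all genes (limma adjusted p = 0.065). With an intensity trend in the prior, ITGAV passed (limma adjusted p = 0.00046), and under the other alternatives, up to an adjusted p of 1 without cell line, it did not. The fit with the trend called 4.66% of all genes tested, against 2.47% without it.

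The other RGD receptor chains gave smaller differences, and none passed. ITGA5, the fibronectin receptor alpha chain, had 9.12 and 9.19 in A549 and 9.24 and 9.10 in H441, with all 4 arrays close together (adjusted p = 0.94). ITGB5, a partner of ITGAV in a vitronectin receptor, had differences of 0.06 and 0.15 (adjusted p = 0.79). ITGB3, another ITGAV partner, had 0.16 and 0.23 (adjusted p = 0.51), the latter between arrays below the table median, at 4.87 and 5.11. ITGB6, the epithelial partner of ITGAV that activates latent TGF-beta, had -0.10 and -0.15 (adjusted p = 0.72), and its A549 arrays were below the table median. ITGB8, ITGA8 and ITGA2B were below it on all arrays. Thus ITGAV differed by 0.62 in A549 while each of its tested beta partners ITGB1, ITGB3, ITGB5 and ITGB6 differed there by -0.10 to 0.16.

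Of the collagen-binding alpha chains, ITGA2 was the 1 tested, and ITGA10 and ITGA11 were below the table median on all arrays. ITGA2, the alpha chain of the collagen receptor α2β1, had 8.94 and 9.08 in A549 and 10.31 and 10.19 in H441. Its siTAZ array was higher in A549 and lower in H441, by 0.15 and -0.12 (adjusted p = 0.98).

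Chains best known from leukocytes were mostly dim. ITGAL, ITGAM, ITGAX and ITGAD, the alpha chains that pair with ITGB2, were below the table median on all 4 arrays, as was ITGAE. ITGA9, not counted among these leukocyte chains, was below it on all 4 arrays as well. ITGB2 itself, the shared beta chain of leukocyte integrins, was 5.87 and 5.99 in A549 but 9.85 and 9.87 in H441, with siTAZ differences of 0.12 and 0.02 (adjusted p = 0.88). ITGA4, the alpha chain of the VCAM1 receptor, was 6.57 and 6.88 in A549 and 5.15 and 5.28 in H441 (adjusted p = 0.46 for siTAZ). ITGB7 had differences of 0.01 and 0.08 (adjusted p = 0.92). ITGAL had the largest A549 difference of the dim members, 0.43, between signals of 5.09 and 5.52, and was not tested.

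None of the 6 tested laminin chains passed the siTAZ test. LAMA5, the alpha chain widespread in epithelial basement membranes, had 8.92 and 8.87 in A549 and 8.31 and 8.38 in H441, differences of -0.05 and 0.08 (adjusted p = 0.98). LAMC1, the gamma chain of most laminins, had 10.42 and 10.40 in A549 and 10.73 and 10.57 in H441 (adjusted p = 0.83). LAMB2, a beta chain that can replace LAMB1, was 8.05 to 8.23 on all 4 arrays (adjusted p = 0.70). The siTAZ differences of LAMA5, LAMC1 and LAMB2 ran from -0.16, for LAMC1 in H441, to 0.17, for LAMB2 in A549. LAMB1 had 0.20 in A549 and -0.17 in H441, and LAMB3, the beta chain of the laminin ligand of hemidesmosomes, had 0.23 and -0.24 (adjusted p = 0.98 and 0.99), so that their signs were opposite in the lines. LAMC3 had -0.01 and 0.23 (adjusted p = 0.79). LAMA1, LAMA2, LAMA4 and LAMB4 were below the table median on all arrays, at 4.89 to 5.46.

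Within each line, few members reached 1.5-fold between the single arrays. In A549, 1 of 16 measured members was higher by that much, ITGAV, against 1.76% of all 11405 genes measured there, and 1 was lower, ITGA6, against 1.07%. In H441, 0 of 17 were higher, against 0.479% of 11911 genes, and 1 was lower, again ITGA6, against 0.974%. ITGB1, 1.38-fold lower, came next in H441, and at 2-fold no member was left in either line. The median difference of the measured members was 0.06 in A549, with 10 of 16 higher, and -0.08 in H441, with 8 of 17 higher. Over all measured genes the medians were 0.0051 and 0.0048, with 50.9% and 50.8% higher, and the median size of a difference was 0.13 in both lines, against 0.14 and 0.15 for the members. So the typical member differed about as much as the typical gene. The H441 median of the members was -0.0069 after quantile normalization and -0.17 after median centring, which moves the median of all genes there to -0.08.

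Whether a member responded differently in A549 and H441 was beyond a test, because an interaction term would use up the last of the 4 arrays. Of the 14 members measured in both lines, 8 had opposite signs. Over all 12740 tested genes, 57.5% had the same sign in both lines, and 11 of the 19 tested members did.

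Between the lines, LAMB1, LAMB3, ITGB4 and ITGB5 differed far more than between siRNAs. The cell line term of the same limma fit, with siRNA as a block, compares the pair of A549 arrays with the pair of H441 arrays. It describes these lines and these arrays: each line is 1 line, and its arrays differ in siRNA. LAMB3 was 6.19 and 6.42 in A549 and 11.94 and 11.69 in H441, 45.6-fold higher in H441 (A549 minus H441 -5.51 ± 0.13, limma SE, adjusted p = 2.6e-21). LAMB1 was 10.72 and 10.93 in A549 and 6.29 and 6.11 in H441, 24.7-fold higher in A549 (4.62 ± 0.12 SE, limma adjusted p = 3.9e-20). For both genes the arrays of the lines are far apart and those within a line close. The dimmer arrays of each gene were near or below the table median, where RMA compresses differences, so these folds may be understated. The remaining beta chain with a signal, LAMB2, had an A549 minus H441 difference of -0.02 (adjusted p = 0.88), which turned to 0.34 after quantile normalization or cyclic loess, where it passed.

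**Figure D3:**
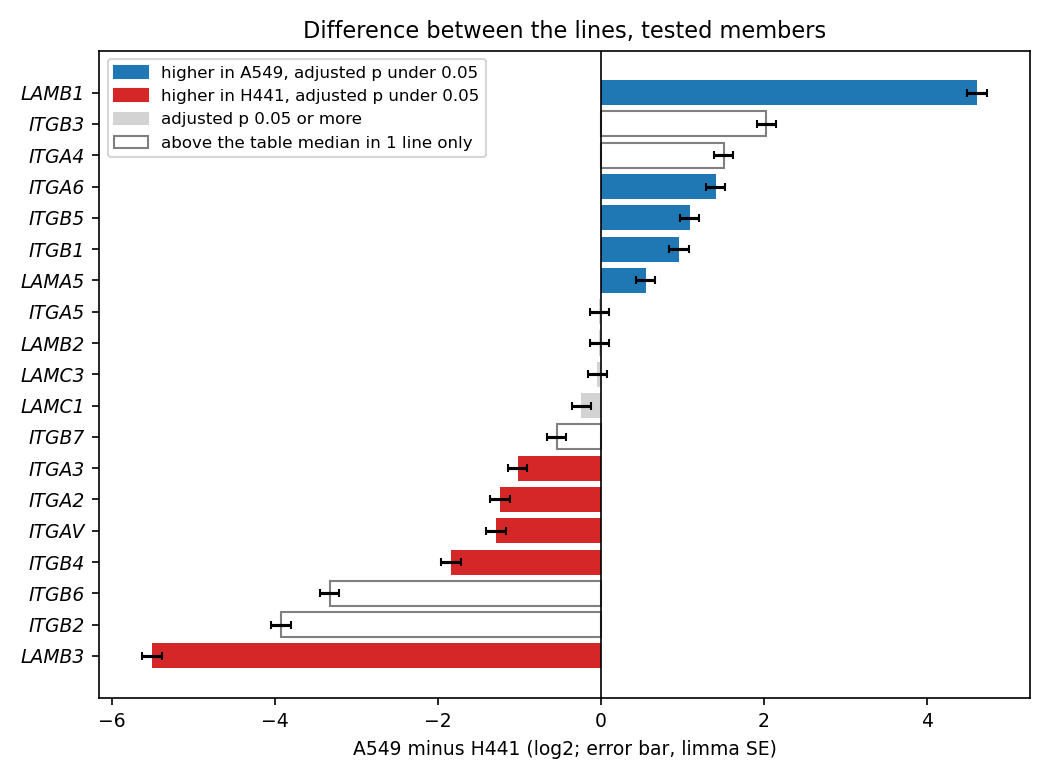
A549 minus H441 difference (horizontal axis, log2) of the 19 tested members from the limma fit of 4 arrays, with the limma SE as error bars; blue and red bars passed at an adjusted p under 0.05, filled grey bars did not, and open bars are the 5 members above the table median in 1 line only. LAMB1 at 4.62 and LAMB3 at -5.51 are at the ends, and ITGA5, LAMB2 and LAMC3 are near 0.

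Among the integrin beta chains measured in both lines, ITGB4 was 3.58-fold higher in H441 (limma adjusted p = 2.7e-12). In the other direction ITGB5 was 2.13-fold higher in A549, at 10.69 and 10.76 against 9.56 and 9.71, and ITGB1 1.95-fold higher. ITGAV was 2.44-fold higher in H441 (limma adjusted p = 1.8e-09). After quantile normalization the A549 minus H441 difference of ITGAV was -0.89, under 2-fold, and that of ITGB1 was 1.38, above it. ITGB2, ITGB3, ITGB6 and ITGB7 passed the filter only through the line where their signal is high, so no fold or test is read from their line difference. ITGB6 had signals of 8.54 and 8.38 in H441 and of 5.18 and 5.08 in A549. ITGB3 had 6.94 and 7.10 in A549 and 4.87 and 5.11 in H441. In each case the arrays of the other line were below the table median, as the A549 arrays of ITGB2, given above, were.

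Beside ITGB2, the leukocyte marker PTPRC was 4.52 to 4.74 on all 4 arrays, near the lowest signals of the table (4.20), and CD3E was 5.09 to 5.44. CORO1A, another of the 5 leukocyte markers with a value, was 9.03 and 9.38 in H441 against 6.05 and 6.34 in A549, LAPTM5 was 6.17 and 6.37 against 5.23 and 5.08, and CD14 was higher in A549, at 7.22 and 7.94 against 5.65 and 5.61. Summed over the list, the log2 signal was 8.28 and 8.71 in A549 and 9.48 and 9.75 in H441. Of the platelet markers, PF4, GP1BA and PPBP were below the table median on all arrays beside ITGB3, at 5.03 to 5.49, and GP9 was 6.07 to 6.46. The part of other cell types in these differences was not tested.

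Among the alpha chains, ITGA6 was 2.66-fold higher in A549 (1.41 ± 0.12 SE, limma adjusted p = 1.4e-10), whereas ITGA2 was 2.36-fold and ITGA3 2.03-fold higher in H441. After quantile normalization the A549 minus H441 difference was -0.83 for ITGA2 and -0.61 for ITGA3, both under 2-fold. The laminin receptor chains thus differed in opposite directions: ITGA6 and ITGB1 were higher in A549, and ITGA3 and ITGB4 in H441. ITGA5 had a difference of -0.02 (adjusted p = 0.90), which turned to 0.38 after quantile normalization or cyclic loess, where it passed. LAMA5 was 1.46-fold higher in A549 (adjusted p = 0.00021), and LAMC1, with -0.24, and LAMC3, with -0.04, did not pass (adjusted p = 0.071 and 0.76).

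In all, 15 of the 19 tested members passed the line test, 7 higher in A549 and 8 in H441. Of all genes tested 71.9% passed, 19% higher in A549 and 52.8% higher in H441, and the members' count is to be read against that share. Among the 14 members that reached the table median in both lines, 10 passed. The 5 that reached it in only 1 line passed the filter through the line where they are high, and their calls, which are among the 15, are not read as results. At 2-fold or more, 5 members were higher in A549, against 7.24% of all genes, and 7 in H441, against 16.5%; ITGA4, ITGB3, ITGB2 and ITGB6 are among these 12. That split was 6 and 6 after median centring, and 6 and 4 after quantile normalization or cyclic loess. The median A549 minus H441 difference of all genes was -0.31 as deposited, -0.15 after median centring and -0.00028 after quantile normalization. With that shift the calls of all genes became 4068 higher in A549 and 4141 in H441 after quantile normalization, against 2425 and 6733 as deposited, and those of the members 9 and 8. ITGA2, ITGA3, ITGA6, ITGAV, ITGB4, ITGB5, LAMB1 and LAMB3 were called at 2-fold and reached the table median in both lines. Each of them kept its sign under all 4 scalings.

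Genes that work with integrins and laminins were taken from lists of adaptors, partners and ligands, and 0 of their 46 tested entries passed the siTAZ test over all genes, against 2.47% of all genes tested. Their other counts are to be read against the 13.2% of all genes with an unadjusted limma p under 0.05 and the 50.9% in A549 and 50.8% in H441 that were higher after siTAZ. Of 21 tested integrin activators and adhesion adaptors, some of which link beta chain tails to actin, 0 passed and 1 had an unadjusted limma p under 0.05. That gene was FERMT2, the kindlin that activates integrins through the beta tail, at 8.89 with siNTC and 8.57 with siTAZ in A549 and 9.69 and 9.39 in H441. Its siTAZ array was the lower one in each line, by -0.31 and -0.30 (limma adjusted p = 0.21). Of the measured adaptors, 6 of 20 were higher in A549 and 7 of 19 in H441, with medians of -0.08 and -0.04. PTK2, the focal adhesion kinase, had -0.03 and -0.05, SRC 0.33 and -0.12, and SHARPIN, an inhibitor of integrin activation, 0.19 and 0.26.

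Partners of α6β4 and other laminin-binding proteins gave 0 calls among 5 tested, with 0 at an unadjusted limma p under 0.05. DST, the hemidesmosomal plakin, had 0.14 in A549 and -0.34 in H441, PLEC, plectin, -0.12 and -0.26, and CD151, the tetraspanin that binds laminin-binding integrins, 0.13 and -0.05. SDC1, syndecan-1, had 0.19 and 0.25 (limma adjusted p = 0.44). The list's medians were 0.13 in A549 and -0.21 in H441, where 4 of 5 and 1 of 5 were higher. COL17A1, DAG1, RPSA and SDC4 are not analysed here.

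Of 9 tested basement membrane genes other than laminins, 0 passed and 0 had an unadjusted limma p under 0.05. COL4A1, a type IV collagen chain, was 8.17 and 7.48 in A549 and 5.72 and 5.91 in H441, lower after siTAZ in A549 and below the table median in H441 (adjusted p = 0.50). NTN4, a laminin-related netrin, had 0.27 and -0.06. Of 11 tested integrin ligands, 0 passed and 2 had an unadjusted limma p under 0.05. COL1A1, a collagen chain, had 0.41 and 0.44 (adjusted p = 0.054), and ICAM1, the ligand of ITGB2 receptors, 0.28 and 0.34 (adjusted p = 0.20). FN1, fibronectin, was 10.94 and 11.01 in A549 and 11.90 and 11.89 in H441. Of the measured ligands 8 of 10 were higher in A549, with a median of 0.20, and 4 of 8 in H441, with a median of 0.02.

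**Figure D4:**
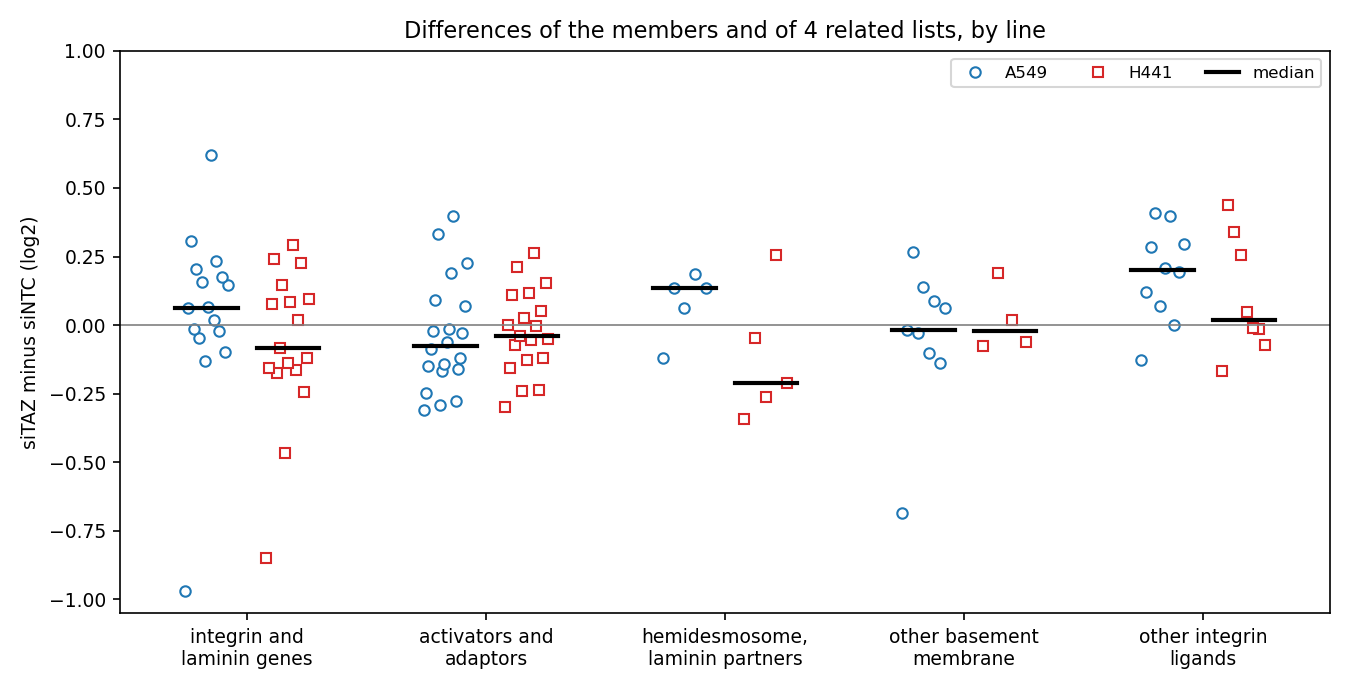
Log2 difference of siTAZ minus siNTC (vertical axis) of the measured integrin and laminin genes and of 4 related lists (horizontal axis), circles for A549 and squares for H441, with the median of each as a bar; each point is 1 gene on single arrays. ITGA6 is the lowest point in both lines, at -0.97 and -0.85, and the list medians lie between -0.21 and 0.20.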

How the data were processed

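RNA of 4 samples was hybridised to Affymetrix whole-transcript arrays, 1 per line and siRNA. The deposited log2 values come from RMA as the authors ran it (per the submitters' processing notes). Not given in the sources used here are the software, its version and whether all arrays went through RMA together. The log2 scale was read from the values (4.20 to 14.83). Of 28869 probe sets, 19310 had 1 symbol in the platform annotation, 1752 several and 7807 none there. For a gene with more than 1 probe set, the one with the highest mean was used, and the Entrez identifiers of all 35 members matched the GRCh38.p14 gene list. limma 3.58.1 in R 4.3.3 (lmFit, eBayes, two-sided, Benjamini-Hochberg over all genes tested) was fitted with cell line and siRNA as terms, with a prior worth 22.3 degrees of freedom. Its SE draws mostly on that prior, not on the spread of the gene itself, and its p-values measure only the spread between these arrays, which may be technical. Precision is limited by having 1 array per group. A gene was called measured in a line where its higher array there reached the table median.

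Values were given for members called, members at 1.5-fold, the 10 with the largest mean absolute difference, laminin-binding and RGD receptor chains, laminin chains of common trimers, the largest line differences, and up to 4 genes per related list with the largest mean absolute difference. PTK2, CD151, FN1 and ITGAL lie outside this rule and were picked once their values were known. LAMC3, given with the other tested laminin chains, also lies outside it. The members and lists were chosen with earlier results of these data known. Alternatives were 3 scalings, 2 filters, the mean of probe sets, fits without cell line and with an intensity trend, the siNTC arrays alone, other fold limits and the mean of members. No array could be left out, because each group has 1.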

Additional observations from a re-analysis of the deposited data

Results flagged for a closer look

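The siTAZ difference had opposite signs in A549 and H441 for 8 of the 14 members measured in both lines. The difference between the lines was not tested, and each side is 1 pair of arrays. The same sign in both lines was seen in 11 of the 19 tested members (57.9%). Over all tested genes that share was 57.5%. The 11 include ITGA4, ITGB2, ITGB3, ITGB6 and ITGB7, which were above the table median in 1 line only. A share of opposite signs over all genes measured in both lines was not computed. The 8 of 14 thus has no background to be read against. The A549 difference minus the H441 difference was 0.48 for ITGB1, 0.48 for LAMB3, 0.38 for LAMB1, 0.27 for ITGA2 and 0.20 for ITGA5. It was -0.39 for ITGB4, -0.24 for LAMC3 and -0.12 for LAMA5.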

How the results depend on the processing

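The siTAZ call of 1 member, ITGA6, stood under 3 scalings, 2 filters and the mean of probe sets. The count was 2 with an intensity trend, which added ITGAV. That fit called 4.66% of all genes tested, against 2.47% without the trend. Without cell line in the fit the count was 0, for the members and for all genes. At the lower fold limit, 2 members were lower in H441 (ITGA6 and ITGB1), and at 2-fold 0 were lower in either line and 0 higher in A549. The line test called 15 to 17 of 19 members under the scalings, the mean of probe sets and the trend, against 15 as deposited. It called 12 of 15 with the stricter filter, 19 of 35 with none, and 10 to 12 at 2-fold against 12. These counts include members above the table median in 1 line only, whose calls are not read as results. As deposited, 71.9% of all genes tested passed. Higher in A549 and in H441 were 3109 and 5244 of 12674 genes after median centring. The calls were 4068 and 4141 of 12674 after quantile normalization, and 4074 and 3984 of 12669 after cyclic loess. The labels carry no replicate numbers; the cell line block already pairs the siRNAs within each line. Filters and fits leave a member's difference as it is, so its direction could turn mainly under the 3 scalings, where 7 siTAZ and 11 line values did, all between -0.24 and 0.05 as deposited. For siTAZ, median centring gave -0.034 for ITGA2, -0.033 for LAMA5, -0.032 for LAMB1 and -0.00090 for ITGB7, quantile normalization 0.031 for LAMB3 and -0.035 for LAMB1, and cyclic loess 0.019 for LAMB3. For A549 minus H441, median centring gave 0.13 for ITGA5 and LAMB2 and 0.11 for LAMC3. Quantile normalization gave 0.16 for LAMC1, 0.38 for ITGA5, 0.34 for LAMB2 and 0.16 for LAMC3, and cyclic loess 0.15, 0.38, 0.34 and 0.19. With an intensity trend LAMC1 passed the line test. The cause of these changes was not tested. Dim signals limit the folds of members under the table median.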
